A study of Mus musculus with 6 samples.

Results

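The genes described here are 34 targets and partners of the transcription factor NRF2 (gene Nfe2l2), together with the enzymes that make, recycle and use the thiol glutathione. They were taken as a list of gene names, chosen with earlier results of these data known. A gene was read by its probe of highest mean log2 signal over the 6 arrays. A probe was found for 33 of the 34 through its RefSeq accession (44 probes in all), and Cbr1 had none. A gene was tested where every array of 1 group or of both read its probe well above background, which held for 30 members, of 19652 features tested among 33269 with a probe.

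NRF2 is held in the cytoplasm by KEAP1, which hands it to a ubiquitin ligase, and oxidants or electrophiles that modify KEAP1 let NRF2 build up and enter the nucleus. There it pairs with small MAF proteins on antioxidant response elements and drives genes for glutathione synthesis, NADPH supply, quinone reduction and thiol repair. Fibroblasts in culture are exposed to oxygen well above that of tissue, and these enzymes are among their defences.

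The arrays measured total RNA of mouse embryonic fibroblasts, 3 samples labelled Rap1 knockout and 3 labelled wild type, on one-colour (Cy3) Agilent mouse arrays. Rap1, encoded by Terf2ip, is a protein of telomeres that also binds elsewhere on chromatin, and its knockout allele lacks exon 3 after Cre excision. Both groups had been infected with the SV40 large T antigen, which disables p53 and the pocket proteins and immortalises the cells, and with Cre recombinase, and both were grown with puromycin. Nothing in the labels ties a replicate to its own embryo or culture, and p-values therefore cover the spread among these 6 samples, which may be technical.

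Levels below are log2 of the processed signal relative to the array's own 75th percentile, and differences are log2 differences, knockout minus wild type. The arrays read 25373 to 27601 of their 41174 probes as well above background (61.6% to 67.0%). Terf2ip had log2 levels of −7.91, −9.08 and −8.11 on the knockout arrays, none of them well above background, against −1.75, −1.65 and −1.81 on the wild-type arrays, a level at least 38.3-fold lower (limma adjusted p = 0.00794). With the slide as a block the limma adjusted p was 0.0626, with a replicate block 0.177, and with wild-type arrays 2 and 3 averaged 0.0654, none of them under 0.05. Whether its probe lies in the deleted exon was not determined. Wild-type arrays 2 and 3 were far more alike than any other pair, with an SD of the log2 difference over all features of 0.25, against 0.83 to 1.25 for the others. Slide 1 held knockout array 1 and wild-type array 1, and slide 2 the other 4 arrays, so slides are a block that holds both groups. All 12 fibroblast markers entered the test, 8 with a log2 difference below 0 and 5 of these at least 2-fold lower in knockout cells, and 0 passed (smallest limma adjusted p 0.475). Their median log2 difference was −0.86, but −0.28 on slide 1 and −0.07 on slide 2. Vim and Col1a1 were above background on every array. Of the markers of other cell types, Pecam1, Cdh5, Tie1, Ptprc, Adgre1, Adipoq, Lep, Alb, Apoa1 and Ttr did not stand well above background anywhere, while Kdr, Hba-a1, Fabp4 and the epithelial Krt5, Krt8, Krt14, Krt18, Krt19 and Epcam did so on all 6 arrays, and Tek, Csf1r, Plin1, Afp and Cdh1 on some. Krt18, a keratin, lay above all wild-type arrays on every knockout array, at a log2 difference of 1.53 (limma adjusted p = 0.472). Krt8, another keratin, went the other way with overlapping groups, at −1.74 (limma adjusted p = 0.486). Fabp4, a fatty acid carrier of adipocytes, lay below all wild-type arrays on every knockout array, at −2.55 (limma adjusted p = 0.430). The adipocyte marker Plin1 lay above them on every knockout array, at 1.16 (limma adjusted p = 0.451), and was well above background on no wild-type array. The part of these markers in the results below was not tested. Knockout array 1 stood apart from the other arrays in Dcn, a matrix proteoglycan of fibroblasts, with a log2 level of −5.47, against 4.97 and 2.19 on the other knockout arrays and 3.13 to 5.79 on the wild-type arrays. Lum, a related proteoglycan, was at −9.08 there and well above background on only 2 of the 3 knockout arrays. Thy1 was at −2.22 on knockout array 1, against 1.92 and 1.99 on the other knockout arrays, and Pdgfra at −1.48, against 1.99 and 0.12. Not every fibroblast marker was low on knockout array 1. Pdgfrb, at 4.56, had its highest value there, and Col1a2, at 7.28, lay within the wild-type range.

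No member passed the threshold, a limma p-value adjusted over all features (Benjamini-Hochberg) under 0.05, and the smallest adjusted p among them was 0.486. Over all features the share past it was 0% for higher and 0.0102% for lower levels in knockout cells, 2 features in all, Terf2ip among them. At an unadjusted limma p under 0.05 there were 2 members higher (Nqo1 and Cbr3) and 0 lower, where 5.62% of all features were higher and 4.66% lower, 10.3% together. On every knockout array 5 members lay above all wild-type arrays: Gclc and Gclm, the subunits of the enzyme that starts glutathione synthesis, Nqo1, a quinone reductase, G6pdx, the NADPH-making first enzyme of the pentose phosphate pathway, and Cat, catalase. That is 16.7% of the 30, against 11.4% of all features higher in this way. None lay below all wild-type arrays, against 5.89% of all features, and the groups were separated in either direction for 17.3% of all features. After normexp with quantile normalisation, and in the deposited value table, Prdx1 lay below all wild-type arrays on every knockout array.

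Most members leaned the same way without passing the test. The log2 difference was above 0 for 25 of 30 and below 0 for 5, where 55.4% of all features lay above 0. Their median log2 difference was 0.29, against 0.07 over all features, and the members ran from −0.85 for Gsta3 to 1.55 for Cbr3. The split depended on the scaling. After quantile normalisation of the processed signal 19 of 30 were above 0, where 54.2% of all features were. The member median was then 0.18, against 0.05 over all features. Scaling by the array median moved the median of all features by about as much as it moved the members, to 0.17 and 0.39, so their distance stayed at 0.22. Counting the mean of wild-type arrays 2 and 3 as a single sample, 22 of 30 were above 0 and the median was 0.19, and without knockout array 1 the count was 20 and the median 0.17. In whole cultures, fewer cells of a type and less RNA per cell cannot be told apart.

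**Figure D1:**
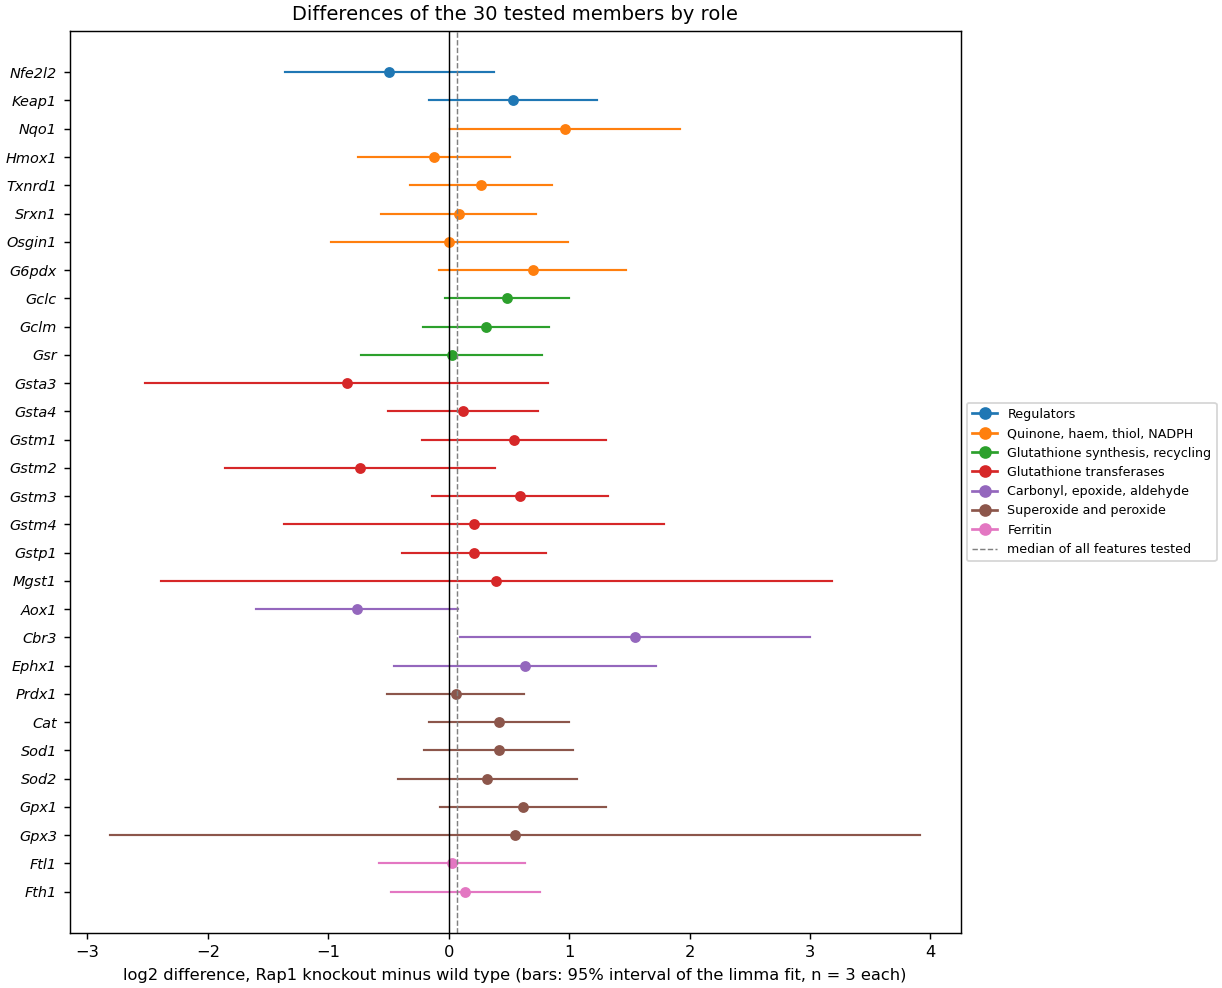
Log2 difference, Rap1 knockout minus wild type, of the 30 tested members (points) with the 95% interval of the limma fit (bars, 3 arrays a group), coloured by role; the solid line is 0 and the dashed line the median of all features tested. The intervals of Nqo1 and Cbr3 lie above 0 before adjustment, and those of Mgst1 and Gpx3 are the widest.

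The antioxidant response element has the core TGACNNNGC, which was searched on both strands from 250 bases before to 50 bases after each RefSeq transcript start (assembly GRCm38.p6). Of 29 members with such a window, 9 held the core (31.0%), against 14% of 27025 genes with a window. The windows of Nqo1, Cat and Cbr3 held no core, which says only that these letters are not in that stretch. The matches of 5 members are shown, with the core in capitals and 10 bases on either side, read 5′ to 3′ on the strand that carries the core. Those of Gclm and G6pdx are shown because these genes lay higher on every knockout array, those of Prdx1 and Txnrd1 because their groups overlapped, and that of Mgst1 because wild-type array 1 stood far from the other wild-type arrays.
Gclm: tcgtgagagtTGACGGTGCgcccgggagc
G6pdx: gcgtgtgcttTGACTGAGCtgacccgcct
Prdx1: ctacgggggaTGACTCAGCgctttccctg
Txnrd1: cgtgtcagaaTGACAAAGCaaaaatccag
Mgst1: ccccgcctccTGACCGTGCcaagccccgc
They lie at chr3:122245413-122245441 (minus strand), chrX:74428919-74428947 (plus strand), chr4:116685456-116685484, chr10:82859104-82859132 and chr6:138140461-138140489 (minus strand for these 3). Counted along the gene from the transcript start, the match begins at −134, −57, −133, −92 and −56 in that order. The Prdx1 core starts with TGACTCA, the heptamer that AP-1 factors also bind, so this match overlaps another motif. A match is a description of the sequence and not evidence of binding.

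Among the regulators, neither Nfe2l2 nor Keap1 passed the test, and their differences had opposite signs. Nfe2l2, which encodes NRF2, had log2 levels of 2.93, 4.05 and 3.66 on the knockout arrays and 3.61, 4.33 and 4.18 on the wild-type arrays. Its log2 difference was −0.49 (SE 0.36, limma adjusted p = 0.577), and knockout array 1 was the lowest of the 6. Without that array it was −0.18. Keap1, the adaptor that marks NRF2 for degradation, was at 4.02, 3.91 and 3.18 on the knockout arrays and 3.37, 3.02 and 3.11 on the wild-type arrays. Knockout array 3 fell within the wild-type range, and the log2 difference was 0.54 (SE 0.29, limma adjusted p = 0.512), or 0.35 after quantile normalisation of the processed signal. NRF2 activity is set mostly at the level of the protein, which these arrays do not read.

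In glutathione synthesis the groups were separated for both subunits of glutamate-cysteine ligase, at small distances. Gclc, the catalytic subunit, was at log2 levels of 1.22, 1.14 and 1.12 on the knockout arrays and 0.89, 0.63 and 0.50 on the wild-type arrays. The 3 knockout values were nearly equal and all above the wild-type ones. Its log2 difference was 0.48 (SE 0.22, 95% interval −0.03 to 1.00, limma adjusted p = 0.494), 1.40-fold. Gclm, the subunit that modifies its activity, was at −0.79, −0.63 and −0.99 on the knockout arrays and −1.26, −1.06 and −1.01 on the wild-type arrays. Knockout array 3 and wild-type array 3 nearly touched, and the log2 difference was 0.31 (SE 0.22, limma adjusted p = 0.567). The groups of Gclm overlapped under every other scaling: quantile normalisation of the processed signal, normexp with quantile normalisation, array median scaling and the deposited value table. Those of Gclc stayed separated under each of these. Gsr, which returns oxidised glutathione to its thiol form, was at 2.46, 2.17 and 1.41 on the knockout arrays and 1.87, 2.09 and 2.02 on the wild-type arrays. The knockout values enclosed the wild-type ones, with a log2 difference of 0.02 (SE 0.32) whose sign turned after quantile normalisation of the processed signal, to −0.09.

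**Figure D2:**
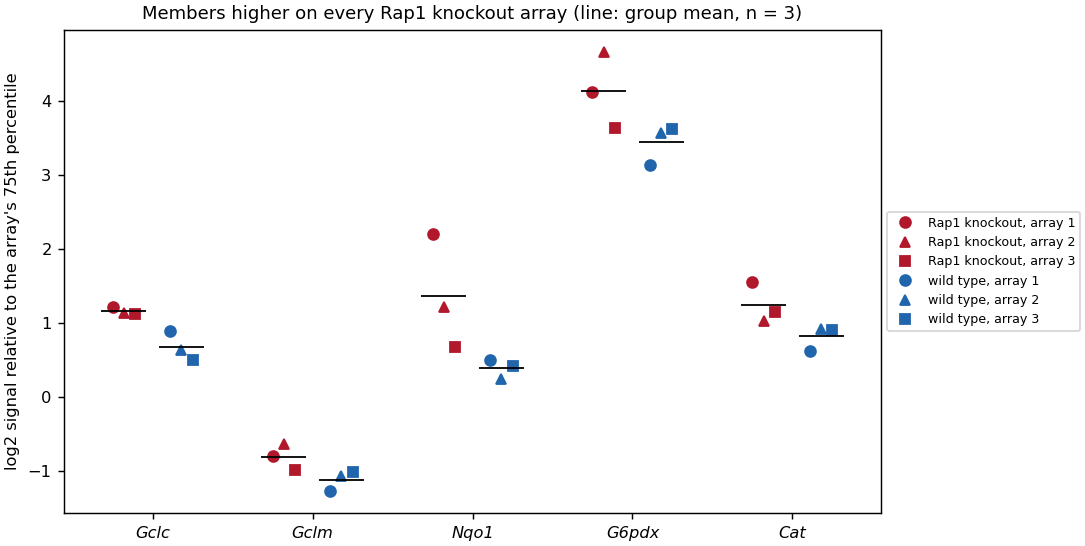
Log2 level relative to the array's 75th percentile (vertical axis) of the 5 members whose knockout arrays (red, left of each pair) all lay above the wild-type arrays (blue), with 1 symbol per array and a line at the group mean (n = 3). The groups lie closest in Gclm and G6pdx, and knockout array 1 stands highest in Nqo1 at 2.2.

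Of the classic NRF2 targets, Nqo1, which reduces quinones by a 2-electron step, had the largest difference with separated groups. Its log2 levels were 2.2, 1.22 and 0.67 on the knockout arrays and 0.51, 0.25 and 0.43 on the wild-type arrays. The knockout arrays spread far more widely (SD 0.77) than the wild-type arrays (SD 0.13). The log2 difference was 0.97 (SE 0.40, 95% interval 0.01 to 1.92, limma adjusted p = 0.486), 1.96-fold, with 1.69 on slide 1 and 0.61 on slide 2, and it was 0.55 without knockout array 1. G6pdx was at 4.13, 4.66 and 3.63 on the knockout arrays and 3.13, 3.57 and 3.62 on the wild-type arrays. All knockout values were higher, the lowest by 0.01 only, and with median scaling of the arrays the groups overlapped. Its log2 difference was 0.70 (SE 0.32, limma adjusted p = 0.497).

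The other targets of this kind showed no such separation. Hmox1, the inducible haem oxygenase, was at log2 levels of 2.85, 2.59 and 2.13 on the knockout arrays and 2.83, 2.52 and 2.59 on the wild-type arrays, a log2 difference of −0.12 (95% interval −0.75 to 0.51). Txnrd1, which reduces thioredoxin, had 5.22, 4.72 and 4.86 on the knockout arrays against 4.92, 4.52 and 4.57 on the wild-type arrays, a difference of 0.27 (95% interval −0.33 to 0.86). Both intervals hold 0 and also changes of more than 0.5, so equal levels were not shown. Srxn1, which repairs over-oxidised peroxiredoxins, differed by 0.08 with its chosen probe and by 0.33 and 0.31 with the other 2. Osgin1, an NRF2 target linked to growth inhibition, had 0.74, −0.29 and 0.26 on the knockout arrays and 0.96, −0.12 and −0.14 on the wild-type arrays. Its groups overlapped throughout, and the log2 difference was 0.00 (SE 0.41). After quantile normalisation of the processed signal, Srxn1 was at −0.07 and Osgin1 at −0.01.

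The glutathione transferases, which couple glutathione to electrophiles, did not move as a family. Of 10, 8 were tested, with 6 log2 differences above 0 and 2 below, where 55.4% of all features were above 0. The median was 0.21, against 0.07 over all features, and 0 had separated groups, against 17.3% of all features. Gstm1 was at log2 levels of 5.64, 5.78 and 4.77 on the knockout arrays and 4.74, 4.84 and 4.99 on the wild-type arrays. Gstm3 was at 4.26, 4.40 and 3.44 on the knockout arrays and 3.44, 3.34 and 3.53 on the wild-type arrays. Both showed the same order, with knockout arrays 1 and 2 above all wild-type arrays and knockout array 3 among them, and log2 differences of 0.54 (SE 0.32) and 0.60 (SE 0.31). That of Gstm1 was 0.33 after quantile normalisation of the processed signal. The mu-class genes are near copies of each other, so a shared pattern can come from probes that read more than 1 of them, which was not tested. Gstm2 had a difference of the other sign, at 1.72, 0.95 and 1.96 on the knockout arrays and 3.20, 1.73 and 1.91 on the wild-type arrays, a log2 difference of −0.74 (SE 0.47). Gstm4 was at −3.82, −1.64 and −1.56 on the knockout arrays and −3.24, −2.23 and −2.17 on the wild-type arrays. Knockout array 1 was thus the lowest and the other knockout arrays the highest, and the log2 difference was 0.21 (SE 0.66).

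The pi-class enzyme Gstp1 was at log2 levels of 6.78, 7.12 and 6.50 on the knockout arrays and 6.76, 6.45 and 6.54 on the wild-type arrays, with a log2 difference of 0.21 (SE 0.25). In the alpha class, Gsta4, which acts on the lipid peroxidation product 4-hydroxynonenal, differed by 0.12 (SE 0.26). Gsta3 was at −5.23, −5.76 and −4.46 on the knockout arrays and −2.74, −5.18 and −4.99 on the wild-type arrays. One wild-type array stood above the other 5, which overlapped, and the log2 difference was −0.85 (SE 0.70, 95% interval −2.52 to 0.82), or −0.41 with normexp background correction. Gsta1 was well above background on 1 knockout and 1 wild-type array and Gsta2 on none, so neither was tested. Mgst1, a membrane-bound transferase, is described with the wild-type arrays below.

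The carbonyl and aldehyde enzymes held both the highest and one of the lowest members. Cbr3, a carbonyl reductase that uses NADPH, was at log2 levels of 3.49, 3.47 and 3.10 on the knockout arrays and 3.28, 1.04 and 1.1 on the wild-type arrays. The knockout arrays lay close to one another and to wild-type array 1, and wild-type arrays 2 and 3 were the low ones. Its log2 difference was 1.55 (SE 0.61, 95% interval 0.09 to 3.00, limma adjusted p = 0.486), 2.92-fold, with 0.22 on slide 1 and 2.21 on slide 2. It was the only member that differed by 2-fold or more, which 3.9% of all features did upward and 6.26% downward. Without wild-type array 1 the Cbr3 difference was 2.28 and passed, and it also passed on slide 2 alone (limma adjusted p = 0.0431). In both fits the near-alike wild-type arrays 2 and 3 are the only wild type. With these 2 averaged, and wild-type array 1 kept, the difference was 1.18 (limma adjusted p = 0.936). Ephx1, the microsomal epoxide hydrolase, was at 2.32, 0.93 and 0.98 on the knockout arrays and 1.33, 0.47 and 0.52 on the wild-type arrays. Array 1 was the high one in each group, and the log2 difference was 0.64 (SE 0.46), or 0.18 without knockout array 1. Aox1, an aldehyde oxidase, was at −3.23, −3.04 and −2.03 on the knockout arrays and −2.14, −1.95 and −1.93 on the wild-type arrays. Knockout array 3 lay just above wild-type array 1, so the groups overlapped, and the log2 difference was −0.76 (SE 0.35, limma adjusted p = 0.497).

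All 6 tested enzymes against superoxide and peroxide had a log2 difference above 0, where 55.4% of all features did. Their median was 0.42, against 0.07 over all features, and 0 passed. After quantile normalisation of the processed signal 5 of 6 were above 0, with Prdx1 at −0.17. Cat, which splits hydrogen peroxide in peroxisomes, was at log2 levels of 1.55, 1.03 and 1.15 on the knockout arrays and 0.63, 0.93 and 0.91 on the wild-type arrays. It was the only one of the 6 with separated groups, 0.42 apart on the log2 scale (SE 0.24, limma adjusted p = 0.521). Gpx1, the cytosolic glutathione peroxidase, was at 5.73, 5.17 and 5.01 on the knockout arrays and 5.01, 4.52 and 4.52 on the wild-type arrays. Knockout array 3 and wild-type array 1 met at the edge, and the log2 difference was 0.62 (SE 0.29, limma adjusted p = 0.497). Sod1, the cytosolic superoxide dismutase, differed by 0.41 (SE 0.26) and Sod2, its mitochondrial counterpart, by 0.32 (SE 0.31), both with overlapping groups, and after quantile normalisation of the processed signal by 0.23 and 0.12. Prdx1, a peroxiredoxin, was at 5.77, 5.58 and 5.23 on the knockout arrays and 5.63, 5.38 and 5.38 on the wild-type arrays, a log2 difference of 0.06 (95% interval −0.51 to 0.63). Sod3, the secreted dismutase, was well above background on 2 arrays of each group and was not tested.

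The ferritin subunits, which store iron and are under NRF2 control in part, were close between groups. Fth1, the heavy chain, differed by 0.14 (SE 0.26) and Ftl1, the light chain, by 0.03 (SE 0.25) on the log2 scale, and both were below 0 after quantile normalisation of the processed signal, at −0.08 and −0.15. Ferritin genes have many processed copies in the genome, which a probe may also read, and this was not tested.

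**Figure D3:**
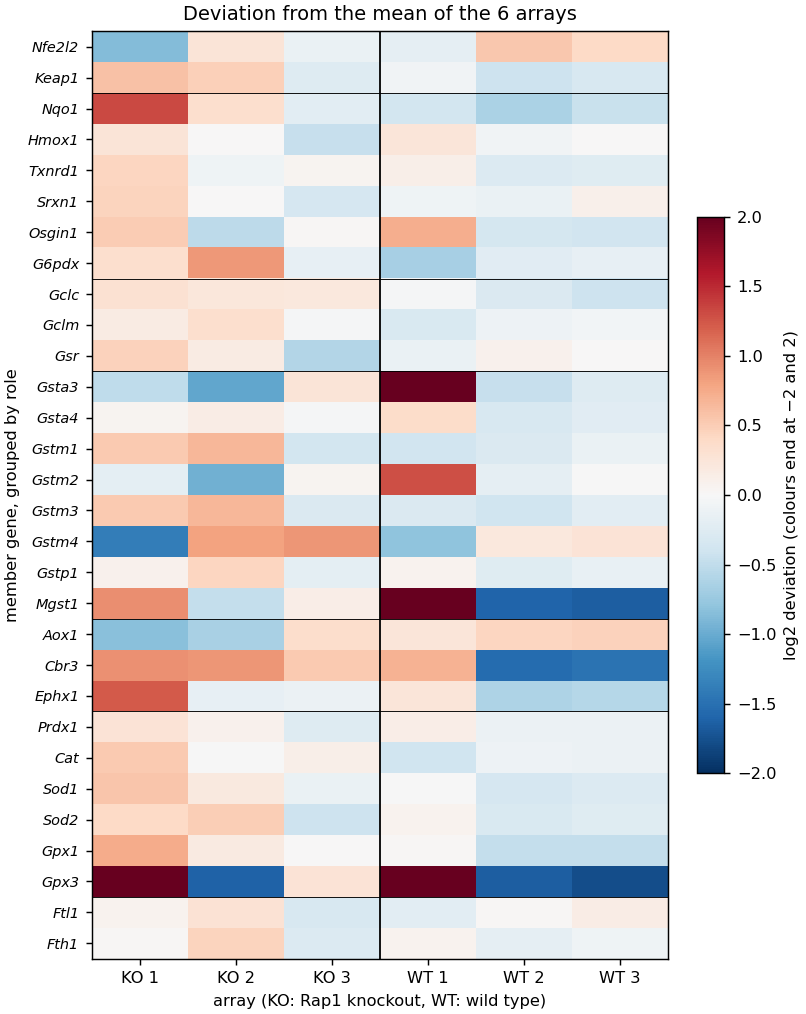
Deviation of each array's log2 level from the gene's mean over the 6 arrays (colour, ending at −2 and 2), for the 30 tested members (rows, grouped by role) on the knockout (KO, left) and wild-type (WT, right) arrays. Knockout array 1 holds the highest value of 13 members, and the strongest colours are on wild-type array 1 in Gsta3, Mgst1 and Gpx3 and on knockout array 1 in Gpx3.

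Array by array, the members did not split by genotype as a set. The median deviation of the 30 from their own means was 0.41, 0.19 and −0.12 on knockout arrays 1, 2 and 3, and 0.04, −0.28 and −0.19 on wild-type arrays 1, 2 and 3. Knockout array 3 thus lay below wild-type array 1, and over all features the same medians ran only from −0.05 to 0.09. Knockout array 1 held the highest value for 13 of 30 members (43.3%), against 30.8% of all features. This was the array with the low Dcn, Lum, Thy1 and Pdgfra, and the part of that in the result was not tested. Without it the separated members were Cat, G6pdx, Gclc, Gclm, Nqo1 and Gstm4, where 15.5% of all features were then higher and 9.9% lower. Without knockout array 3 there were 14 higher and 3 lower (Aox1, Gsta3 and Gstm2), where 26.3% of all features were then higher and 15.9% lower.

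Several members differed more among the wild-type arrays than between the groups. Wild-type array 1 was at least 2-fold away from the mean of wild-type arrays 2 and 3 for 7 of 30 members (23.3%), against 16.7% of all features. It was at least 2-fold above that mean for 6 of the 30, against 8.12% of all features. Mgst1 was at log2 levels of 2.39, 0.98 and 1.58 on the knockout arrays and 4.12, −0.15 and −0.20 on the wild-type arrays. Wild-type array 1 was 19.6-fold above the other wild-type arrays, with the knockout arrays between, and the second Mgst1 probe gave the same order, at 3.60, −0.57 and −0.76 on the wild-type arrays. Gpx3, the secreted glutathione peroxidase, was at −1.93, −5.70 and −3.81 on the knockout arrays and −1.48, −5.74 and −5.87 on the wild-type arrays. Here 1 array of each group was high, both on slide 1, and wild-type array 1 was 19.99-fold above the other wild-type arrays. The group differences of Mgst1 (0.40, SE 1.17) and Gpx3 (0.55, SE 1.41) were smaller than the wild-type SDs of 2.48 and 2.5, and turned to −0.32 and −0.17 once wild-type arrays 2 and 3 were averaged. The others above were Gsta3 (5.09-fold), Cbr3 (4.61-fold), Gstm2 (2.59-fold) and Osgin1 (2.14-fold), and Gstm4 was lower on wild-type array 1. For 12 of the 30 members the group difference was smaller than the wild-type SD, a share close to the 38.5% of all features.

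**Figure D4:**
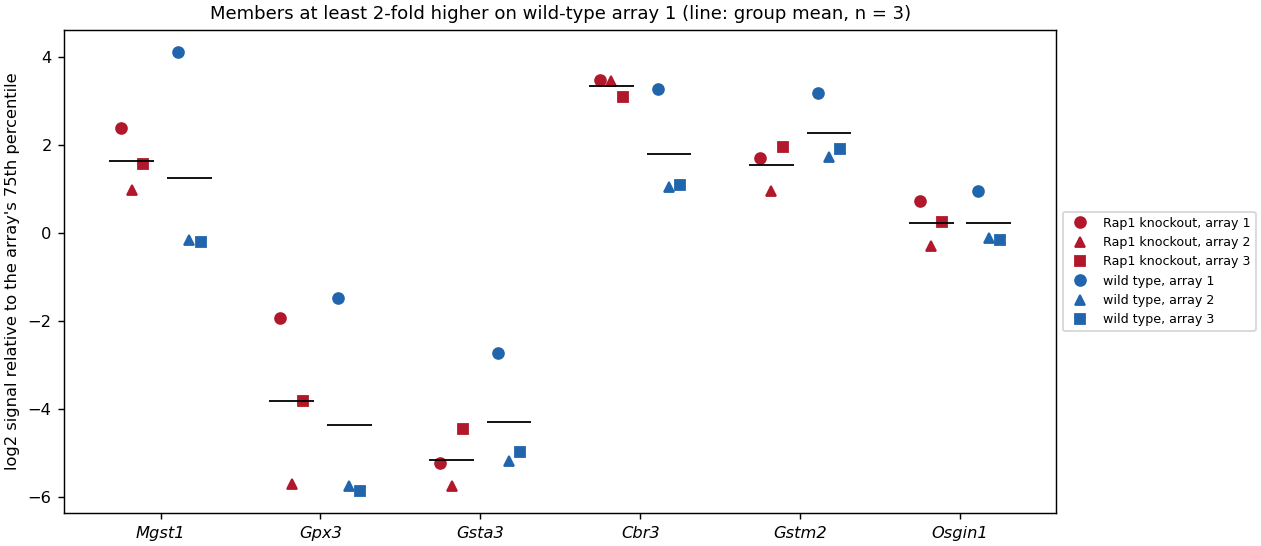
Log2 level relative to the array's 75th percentile (vertical axis) of the 6 members at least 2-fold higher on wild-type array 1 than on the mean of wild-type arrays 2 and 3, with knockout arrays in red at the left of each pair, wild-type arrays in blue, 1 symbol per array and a line at the group mean (n = 3). The wild-type circle stands far above the wild-type triangle and square in Mgst1 and Gpx3, and the knockout arrays fall between or on both sides.

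The differences on the 2 slides had opposite signs for 10 of 30 members (33.3%), against 39.4% of all features. The median member difference was 0.30 on slide 1 and 0.31 on slide 2, against 0.15 and 0.05 over all features. Mgst1 differed by −1.73 on slide 1 and 1.46 on slide 2. Nqo1, G6pdx, Gclc, Gclm and Cat were above 0 on both, as their separation requires, and Aox1, Nfe2l2, Gstm2 and Gsta3 were below 0 on both, Gsta3 at only −0.03 on slide 2. Only knockout array 1 and wild-type array 1 were on slide 1, and the slide cannot be told apart from what sets those arrays off.

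**Figure D5:**
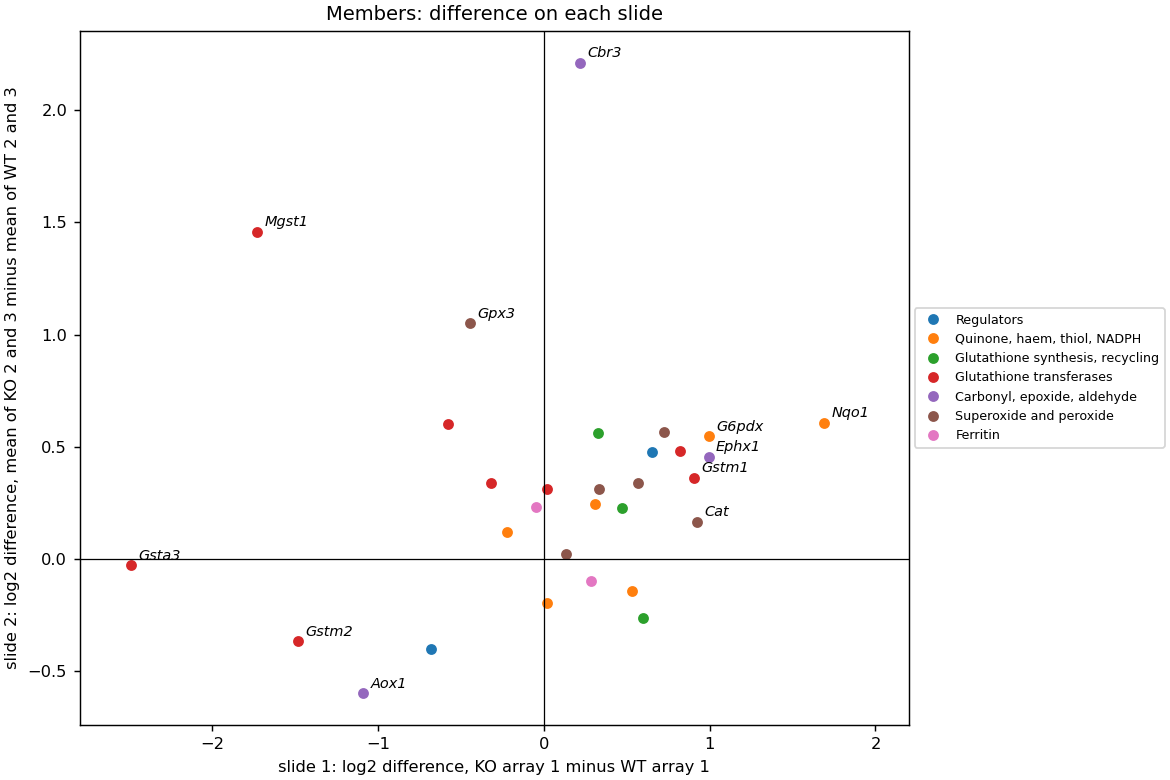
Log2 difference on slide 1 (horizontal axis, knockout array 1 minus wild-type array 1) and on slide 2 (vertical axis, mean of knockout arrays 2 and 3 minus mean of wild-type arrays 2 and 3) for the 30 tested members, coloured by role, with names where either difference is large. Nqo1 lies at 1.69 and 0.61, Cbr3 at 0.22 and 2.21, and Mgst1 at −1.73 and 1.46, on opposite sides of 0.

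Of 9 members with several probes, 8 had the same sign with every probe, and the probes of a gene differed by at most 0.24 in their log2 difference. The exception was Gsr, whose 3 probes lay between −0.06 and 0.06. The second Gstm1 probe, at a difference of 0.63, and that of Nfe2l2, at −0.42, matched the sign of the chosen ones.

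The wider pathway was read through 88 further genes of glutathione supply, transferases, thioredoxin and peroxidases, carbonyl and iron handling, and the KEAP1-NRF2 switch. Of 79 tested, 0 passed the threshold. At an unadjusted limma p under 0.05, 7 were higher and 4 lower, where 5.62% of all features were higher and 4.66% lower. The median log2 difference was 0.18, against 0.07 over all features. The groups were separated upward for 12 and downward for 6 (22.8% of the 79), against 17.3% of all features. A pair of mu-class transferases stood out next to the members of their cluster on chromosome 3, where Gstm5, Gstm7, Gstm6, Gstm3, Gstm2, Gstm1 and Gstm4 follow each other in the gene order of GRCm38.p6. Gstm6 was at log2 levels of −2.68, −2.35 and −1.82 on the knockout arrays and −3.44, −4.89 and −5.09 on the wild-type arrays, 2.19 higher on the log2 scale (SE 0.49), which did not pass (limma adjusted p = 0.331). Gstm7 was at −4.29, −4.36 and −4.20 on the knockout arrays and −5.61, −5.08 and −5.45 on the wild-type arrays, 1.1 higher on the log2 scale (SE 0.23), which did not pass (limma adjusted p = 0.314). Both are dim, and with normexp background correction the differences were 1.32 and 0.44. The knockout arrays were tight in Gstm7, and all lay above the wild-type arrays in both genes. Gstm2 of the same cluster, at a log2 difference of −0.74, was at −0.28 without wild-type array 1, and its groups overlapped.

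Glutathione supply held genes on both sides. Slc7a11, the cystine importer subunit that feeds glutathione synthesis and is itself an NRF2 and ATF4 target, was at log2 levels of −7.61, −4.86 and −3.49 on the knockout arrays and −3.33, −2.45 and −2.92 on the wild-type arrays. With the chosen probe all knockout arrays were lower, and only 2 of 3 were well above background. The log2 difference was −2.42 (SE 0.98, limma adjusted p = 0.486), with −1.28 without knockout array 1 and −0.97 with normexp background correction. The other Slc7a11 probes gave −1.29 and −2.24, and with each of them the groups overlapped. Ggt7, a member of the gamma-glutamyltransferase family, was at 0.14, −0.42 and 0.44 on the knockout arrays and −0.38, −2.12 and −2.33 on the wild-type arrays, where the groups overlapped (log2 difference 1.66, SE 0.55, limma adjusted p = 0.475). Abcc4, an exporter of organic anions, was at 0.74, 0.92 and 0.45 on the knockout arrays and −0.10, −0.62 and −0.63 on the wild-type arrays, 1.15 higher on the log2 scale (SE 0.26), which did not pass (limma adjusted p = 0.333). Gsto2, an omega-class transferase that reduces dehydroascorbate, was at −2.07, −1.87 and −1.70 on the knockout arrays and −1.33, −0.04 and 0.02 on the wild-type arrays. It was lower on every knockout array, by 1.43 on the log2 scale (SE 0.40, limma adjusted p = 0.442). Of the 13 tested genes of the KEAP1-NRF2 switch, 9 had a log2 difference above 0 and 4 below, where 55.4% of all features were above 0. Their median was 0.08, against 0.07 over all features.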

How the data were processed

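RNA of 3 Rap1 knockout and 3 wild-type fibroblast samples was measured on one-colour arrays. Per the file headers, the deposited intensity values were extracted with Agilent software (Feature Extraction 10.5.1.1). They comprise the processed signal, corrected for background within the array, and each spot's median signal and local background. A deposited value table gives log2 values for these arrays. The submitters' processing notes name limma, and the authors' steps are otherwise not given in the sources used here. These log2 values correlated at 0.99998 or more with normexp-corrected, quantile-normalised scanner signals, and the knockout columns 1, 2 and 3 matched scanner files 2, 3 and 1 of the same group. Replicate numbers here are those of the scanner files.

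Control spots (1639 of 45018) and outlier spots (74 to 120 per array) were left out, no spot was saturated, and spots of a probe were averaged. Names came from RefSeq accessions without versions (GRCm38.p6 table): 23374 probes matched, and the file's name was kept for 17800. Features, 1 probe per gene, were compared 3 against 3 with no block, by a 2-sided moderated test with Benjamini-Hochberg adjustment (lmFit and eBayes of limma 3.58.1, under R 4.3.3), which was tested on simulated data. The simulated arrays varied independently, so that check does not cover the likeness of wild-type arrays 2 and 3. The bound for Terf2ip sets the wild-type mean against the knockout mean of, per array, the higher of its signal and the lowest signal well above background. The number of arrays limits the precision. Members, gene lists and alternatives were chosen with earlier results of these data known. The wider genes named are those past the threshold, those separated by at least 1 on the log2 scale, and the 5 of smallest p. Alternatives were other scalings, the value table, filters on dim probes, probe means, a trended robust variance, blocks, slide 2 alone, wild-type arrays 2 and 3 averaged, and each array left out.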

Additional observations from a re-analysis of the deposited data

How the results depend on the processing

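Across 18 alternatives, 495 of 540 member values kept the sign of their log2 difference, and 19 of 30 members kept it in every alternative. Features past the threshold numbered 2, but 0 with a replicate block, with a slide block, with wild-type arrays 2 and 3 averaged or over probes above background on all arrays (unadjusted limma p under 0.05: 2352, 3483, 690 and 1780), 4 with probe means, 299 on slide 2 alone, and 0 to 63 with single arrays left out (63 when wild-type array 1 was dropped, and 0 for wild-type array 2 or 3 or knockout array 1). The filter on all arrays leaves out Terf2ip, which was not well above background in knockout cells, so it could not pass there. Members past the threshold were 0, but 1 (Cbr3) on slide 2 alone, where 3 wider genes passed and 15 members lay higher and 2 lower on every knockout array (32% and 25.8% of all features). With single arrays left out, 0 to 1 members and 0 wider genes passed, 5 to 14 members lay higher on every knockout array, 20 to 24 were above 0 and their median ran from 0.17 to 0.38. The 1 member came without wild-type array 1, and without it 14 members lay higher and 2 lower (26.4% and 19.3% of all features), as 14 and 3 did without knockout array 3 (26.3% and 15.9%). The member median was 0.14 in the value table. Arrays of the same number deviated with correlations of 0.01, 0.06 and −0.08. With 3 arrays a group, and wild-type arrays 2 and 3 near-alike, these values cannot decide whether the numbers pair the samples. With this replicate block no member passed (3 at an unadjusted p under 0.05), and every member difference stayed as it was. Terf2ip missed the threshold under the replicate block (limma adjusted p = 0.177), the slide block (0.0626) and wild-type arrays 2 and 3 averaged (0.0654), and without wild-type array 2 or 3 or knockout array 1 or 3, at log2 differences from −6.86 to −6.27 over the 6 arrays left out, and was at −2.61 with normexp background correction.

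Signs turned as follows, with the cause not tested. After normexp with quantile normalisation, Srxn1 was at −0.052, Osgin1 at −0.021, Gsr at −0.056, Prdx1 at −0.15 and Ftl1 at −0.14. After quantile normalisation of the processed signal they were at −0.071, −0.01, −0.091, −0.17 and −0.15, and Fth1 at −0.084. In the value table they were at −0.08, −0.027, −0.078, −0.16 and −0.15, and Fth1 at −0.055. On slide 2 alone Srxn1 was at −0.14, Gsr at −0.26 and Ftl1 at −0.10. With wild-type arrays 2 and 3 averaged Osgin1 was at −0.18, Mgst1 at −0.32 and Gpx3 at −0.17. With single arrays left out, Hmox1 ran from −0.28 to 0.074, Srxn1 from −0.12 to 0.27, Osgin1 from −0.24 to 0.37, Gsr from −0.20 to 0.33, Gsta4 from −0.015 to 0.33, Gstm4 from −0.18 to 0.95, Mgst1 from −0.33 to 1.83, Prdx1 from −0.061 to 0.20, Gpx3 from −0.39 to 1.99, Ftl1 from −0.11 to 0.19 and Fth1 from −0.053 to 0.30. Signal near background limits Gsta1, Gsta2 and Sod3.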

Other observations

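Among the wider genes, 3 had values far apart within a group and were chosen after their values were seen. Gpx7, a peroxidase of the endoplasmic reticulum, was at log2 levels of −1.2, 2.66 and 1.22 on the knockout arrays and 2.64, −3.10 and −3.03 on the wild-type arrays, so that wild-type array 1 was 52.2-fold above the other wild-type arrays. Mgst2, a membrane-bound transferase, was at −2.45, 4.22 and 1.2 on the knockout arrays, while the wild-type arrays lay close together at 0.91, 1.16 and 1.13. Ptges, an inducible prostaglandin E synthase of the same protein family, was at −1.84, 1.48 and 0.14 on the knockout arrays and −0.44, −3.41 and −3.13 on the wild-type arrays. For these genes the knockout minus wild-type log2 difference was 2.06 (SE 1.72), −0.08 (SE 1.5) and 2.25 (SE 1.06), and none passed the threshold.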
